A study of Oncorhynchus mykiss with 6 samples.

Results

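MiR-22 is a microRNA (miRNA), a short RNA that guides Argonaute proteins to complementary sites in messenger RNAs and so lowers their translation or stability. It is shared by vertebrates and is cut from a hairpin precursor, whose left and right strands give the 5p and the 3p product. The strands are released as a duplex, and in mammals the 3p strand is the one mostly kept as the guide. Mammalian miR-22-3p is known to act on transcripts such as HDAC4 and PPARA, and it has been studied in liver for its part in lipid and glucose metabolism. Zebrafish carry it as the paralogues miR-22a and miR-22b. Base pairing with a target starts at the seed, which is bases 2 to 8 of the miRNA.

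All sequences named after miR-22 were taken from a table of small RNA sequences in rainbow trout liver, and 11 of its 1389 sequences carried that name. The name alone set which sequences belonged, but miR-22 itself was picked from these libraries with its levels in both groups known, so the differences between groups below are descriptions and no p is given for them. The livers came from wild-type juvenile rainbow trout of the strain given as Walbaum, after 4 d of interaction in pairs. Status came from a behaviour score within each pair, and the 3 socially subordinate (SS) fish had the lower score. The 3 socially dominant (SD) fish had won and had eaten the food of the pair. Status, feeding and cortisol cannot be told apart in this design, and fish held alone were not analysed here. Each library came from 1 fish, so the spread within a group is a spread between fish. In whole liver, fewer cells of a type and less RNA per cell cannot be told apart.

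The 5 sequences below carried nearly all miR-22 reads and are shown because the results turn on how they differ. They are written 5′ to 3′ with T for U, as in the deposited table, with the seed in capitals.
dre-miR-22a-3p: aAGCTGCCagctgaagaactgt
ola-miR-22_R+1: aAGCTGCCagctgaagaactgc
dre-miR-22b-3p: aAGCTGCCagttgaagagctgt
dre-miR-22a-5p_R-1: aGTTCTTCactggcaagcttt
dre-miR-22b-5p_R-1: cGTTCTTCactggctagcttt
A name opens with the fish whose registered miRNA was matched (dre is zebrafish and ola is medaka) and closes with the bases gained or lost at an end, so that R-1 is 1 base shorter at the 3′ end.

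Both paralogues had the same seed in each arm. Counted from the 5′ end, the 3p strands of miR-22a and miR-22b differed by C11T and A18G, and the 5p strands by A1C and A15T, so that every difference lay outside the seed. The form ola-miR-22_R+1 differed from dre-miR-22a-3p by T22C alone, in the last base. The authors' classes place dre-miR-22a and dre-miR-22b among known trout miRNAs, and ola-miR-22_R+1 among sequences that map directly to a trout locus able to fold into a hairpin. The 3p seed AGCTGCC was found in 5 sequences of the table and the 5p seed GTTCTTC in 2, and all of them were named miR-22. No sequence of another name in the table therefore shared a seed with miR-22.

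The strands of each paralogue were also paired with each other by computation, to show what the precursor releases. The arms of miR-22a formed 19 base pairs at -26.90 kcal/mol, and those of miR-22b formed 18 base pairs at -26.00 kcal/mol. In miR-22b the first base of the 5p strand, changed by A1C, was unpaired. Positions in the trout genome are not given, since a genome was not used here.

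Of the 11 sequences, 6 were seen too rarely for any comparison. They had between 0.5 and 18 counts over the 6 libraries and at most 7 in a library, and none passed the filter on low counts. The most frequent of them, ssa-mir-22a-p3, is by its name from the miR-22a precursor, which was not checked, and it matched neither mature strand. It had 1, 0 and 2 counts in SS fish 4A, 6A and 1B, and 3, 7 and 5 counts in SD fish 4B, 6B and 21A. The other 5 had 7 counts or fewer in total. Of these, 3 were further forms named ola-miR-22 with longer, changed or shortened ends, and 1 was another sequence that matched neither strand. The last was tni-miR-22a_L+5R-2, which starts 5 bases before the usual 3p strand and so has another seed. Another seed was also found in ola-miR-22_L-4R+1, which lacks the first 4 bases of that strand.

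The depth of the libraries sets the precision of these values. Mappable reads, which are inserts of 15 to 32 nt left after the adapter was cut, ranged from 3270771 to 4666220 in SS fish and from 2420009 to 6061431 in SD fish. Between 33.9% and 55.8% of them were counted in the table, lowest in SS 6A and highest in SD 21A. Levels are given as normalized reads, which are the authors' counts divided by a size parameter for each library. A miRNA read spans the whole molecule, so no scaling for length was needed, but ligation and amplification differ between sequences, and levels of different sequences are not calibrated against each other. Hepatocyte identity was clear in each library, since miR-122, the liver's own miRNA, summed to between 576193 and 813536 normalized reads in SS fish and between 597730 and 702931 in SD fish.

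MiR-22 was one of the more abundant miRNAs of trout liver. All of its forms together made up 2.30% of the counts in the table on average, between 1.91% and 2.59% in a single fish. Nearly all of this was the 3p strand of miR-22a. The form dre-miR-22a-3p held 94.1 ± 0.594% of miR-22 reads in SS fish and 92.4 ± 0.292% in SD fish (mean ± standard deviation, n = 3 each). It was the seventh sequence of the table by mean level and placed between 6 and 10 in every fish. The 5p strand dre-miR-22a-5p_R-1 placed at 50, and ola-miR-22_R+1, dre-miR-22b-3p and dre-miR-22b-5p_R-1 followed at 106, 149 and 176.

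**Figure D1:**
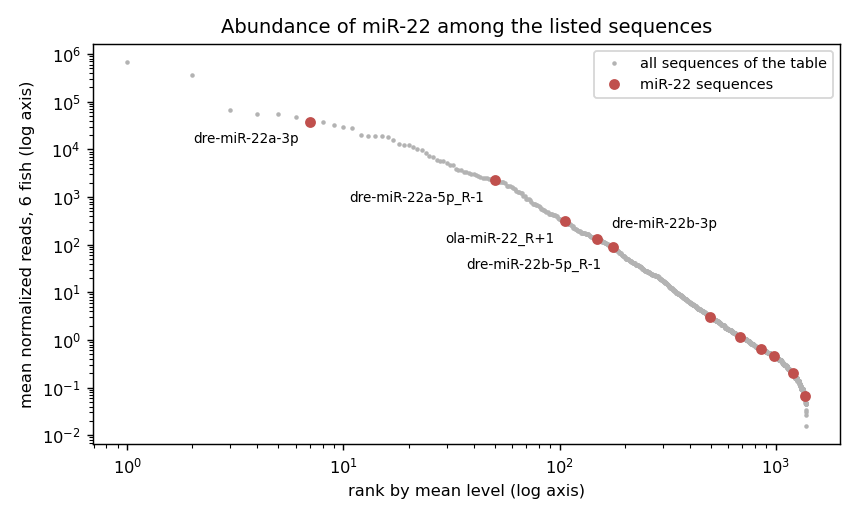
Mean normalized reads over 6 fish (y axis, log scale) against rank by mean level (x axis, log scale) for the 1389 sequences of the table (grey) and the 11 miR-22 sequences (red). The main 3p strand of miR-22a stands at rank 7, its 5p strand at rank 50, and 6 rare forms lie at rank 496 or beyond.

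The main strand was steady across fish. Dre-miR-22a-3p had 38985, 37841 and 35179 normalized reads in SS fish 4A, 6A and 1B, against 34837, 36204 and 45456 in SD fish 4B, 6B and 21A. SD 21A stood above the other fish, which lay close together, and the groups overlapped. The means were 37335 ± 1953 in SS fish and 38832 ± 5777 in SD fish and the log2 fold change, SS over SD, was -0.08 (standard error 0.16). Its coefficient of variation over all 6 fish was 10.4%, and only 2 of the 69 sequences with at least 1000 normalized reads on average had a lower one; their median was 22.9%. With the libraries scaled by TMM it again placed at 3 from the lowest, at 10.3%, and scaled by total counts of the table at 4. Scaled by mappable reads it placed at 18 of 69, at 23.9%. These other scalings were chosen after the values were seen.

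The lesser strand of the same precursor, 5p, was lower in the subordinate fish. Dre-miR-22a-5p_R-1 had 1706, 2089 and 1873 normalized reads in SS fish 4A, 6A and 1B, against 2355, 2267 and 3231 in SD fish 4B, 6B and 21A. All 3 SS fish lay below all 3 SD fish, though SS 6A and SD 6B were near each other. The means were 1889 ± 192 in SS fish and 2617 ± 533 in SD fish, which is a ratio of 0.722 and a fitted log2 fold change of -0.49 (standard error 0.21). Of the 5 members tested, this was the only one whose groups did not overlap. Over the 338 sequences tested, the SS fish all lay below the SD fish in 7.69%, and all above them in 10.7%. The fold change was -0.33 without SD 21A, the deepest library and the one with the highest level. That the groups stayed apart adds no support, since leaving out a fish can bring overlap only through rescaling of the rest. Scaled by mappable reads, the counts per 1000000 reads were 451, 335 and 602 in SS fish and 766, 578 and 945 in SD fish, and on that scale SS 1B lay above SD 6B.

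**Figure D2:**
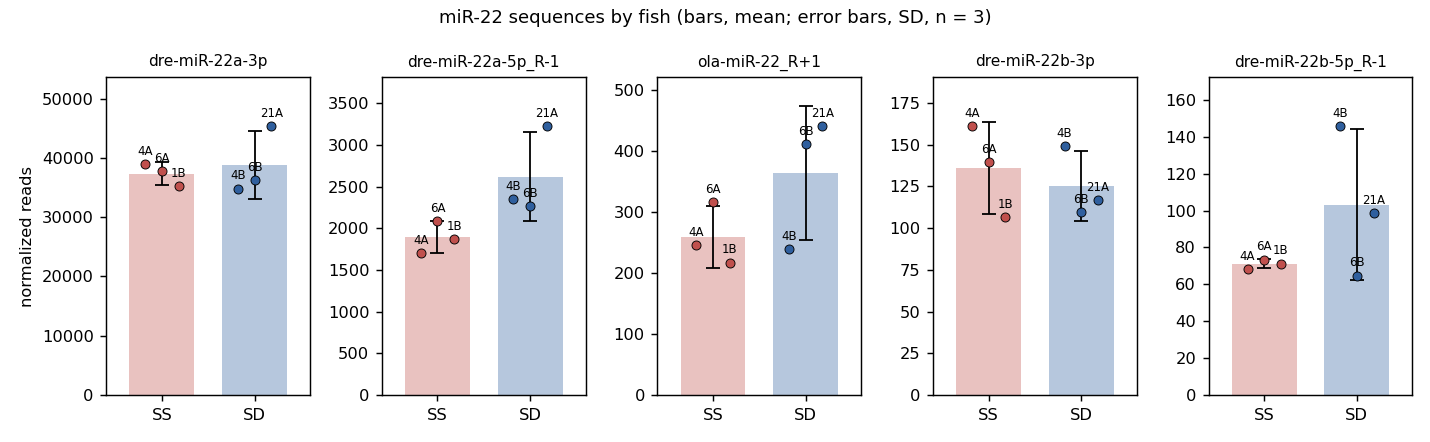
Normalized reads (y axis, a scale of its own in each panel, from 0) of the 5 miR-22 sequences that passed the filter, in SS fish (red) and SD fish (blue). Points are fish, bars are group means and error bars are standard deviations, n = 3. Only in the panel of dre-miR-22a-5p_R-1 do all SS fish lie below all SD fish.

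The 3p form that ends in C was a minor companion of the main strand. Ola-miR-22_R+1 had 245, 315 and 217 normalized reads in SS fish 4A, 6A and 1B, against 238, 410 and 441 in SD fish 4B, 6B and 21A. Fish 6B and 21A were high, while SD 4B lay within the SS fish, and the groups overlapped. The means were 259 ± 50.8 in SS fish and 363 ± 109 in SD fish and the log2 fold change was -0.52 (standard error 0.30). As a share of miR-22a 3p reads it made up 0.626%, 0.827% and 0.612% in SS fish and 0.679%, 1.12% and 0.961% in SD fish. Reads that fit several sequences were shared between them by the authors, so the split between forms that differ in a terminal base is uncertain, and whether this form comes from a locus of its own was not tested.

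MiR-22b was scarce in liver, and its arms were less unequal than those of miR-22a, with 3p reads between 1.02 and 2.36 times the 5p reads. Dre-miR-22b-3p had 161, 139.7 and 106 normalized reads in SS fish 4A, 6A and 1B, against 149, 109 and 117 in SD fish 4B, 6B and 21A. The fish of both groups were interleaved, with means of 135.9 ± 27.7 in SS fish and 125 ± 21.2 in SD fish and a fitted change of 0.09 on the log2 scale (standard error 0.28). Dre-miR-22b-5p_R-1 had 68.6, 73.5 and 71.3 normalized reads in SS fish 4A, 6A and 1B, against 146, 64.8 and 98.7 in SD fish 4B, 6B and 21A. Here the SS fish were nearly equal while the SD fish ranged widely, and SD 6B was the lowest of all. The means were 71.1 ± 2.46 in SS fish and 103 ± 40.9 in SD fish and the fitted log2 fold change was -0.55, with a standard error of 0.34. Between 51 and 175 counts stood behind each of these 5p values.

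Set against each other, the paralogues differed far more in the 3p strand than in the 5p strand. The 3p reads of miR-22a outnumbered those of miR-22b by between 235 and 392 times in each fish, and the 5p reads by between 16.1 and 34.98 times. As a share of 3p reads, miR-22b made up 0.358 ± 0.0553% in SS fish and 0.325 ± 0.0881% in SD fish. As a share of 5p reads, it made up 3.64 ± 0.234% in SS fish and 3.86 ± 1.72% in SD fish. Both shares overlapped between groups, so the balance between paralogues showed no separation by status at this depth.

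The balance between arms of miR-22a lay apart in the groups. A share of this kind is taken within a library and does not depend on how libraries are scaled. The 5p strand made up 4.17%, 5.19% and 5.03% of miR-22a reads in SS fish 4A, 6A and 1B, against 6.29%, 5.83% and 6.58% in SD fish 4B, 6B and 21A. Every SS fish lay below every SD fish. Of the 38 miRNAs compared further below, this held for 2 (5.26%), and the opposite order for 3 (7.89%). The means were 4.79 ± 0.549% in SS fish and 6.23 ± 0.377% in SD fish, a difference of -1.44 percentage points. The nearest fish of the groups were SS 6A, with a Wilson 95% interval of 4.94% to 5.46%, and SD 6B, with one of 5.58% to 6.09%. Such intervals cover counting error only and leave out the spread between fish. Reads amplified by PCR without molecular identifiers are not independent molecules, so the intervals can be too narrow even for counting error. Read as a ratio, the 3p strand outnumbered the 5p strand by 20.1 ± 2.57 times in SS fish and 15.1 ± 0.987 times in SD fish. This difference was 0.41 on the log2 scale (standard error 0.12). Share and ratio use the same counts as the strand levels above, so they are not a separate result.

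In miR-22b the same share pointed the same way but overlapped. The 5p strand made up 29.8%, 34.5% and 40.1% of miR-22b reads in SS fish 4A, 6A and 1B, against 49.5%, 37.2% and 45.8% in SD fish 4B, 6B and 21A. SS 1B lay above SD 6B, and the means were 34.8 ± 5.16% in SS fish and 44.1 ± 6.29% in SD fish. Only 142.5 reads stood behind the value of SD 6B, whose Wilson 95% interval ran from 29.8% to 45.5%. Fish 6B was in both paralogues the SD fish with the lowest 5p share, and fish 4A the SS fish with the lowest.

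**Figure D3:**
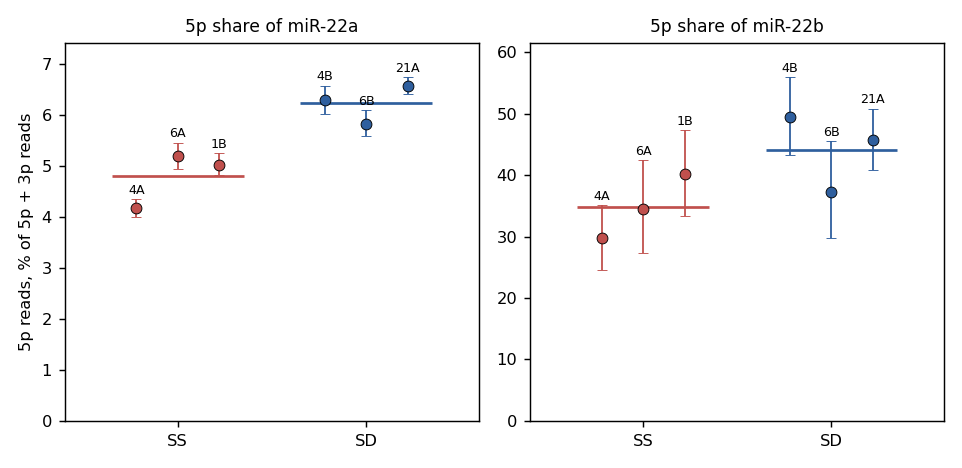
Reads of the 5p strand in percent of 5p plus 3p reads (y axis, from 0, a scale of its own in each panel) for miR-22a (left) and miR-22b (right) in SS fish (red) and SD fish (blue). Points are fish, vertical bars are Wilson 95% intervals of counting error and horizontal lines are group means. All SS fish lie below all SD fish for miR-22a, while SS 1B lies above SD 6B for miR-22b.

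Arm balance was set beside that of other miRNAs. Only names that mark the arm as 5p or 3p were paired, and 38 miRNAs had both such strands at a mean of at least 10 counts. MiR-22a and miR-22b were included, and the 3p strand was the larger in 14 of them. Sequences named without an arm, such as dre-let-7a and dre-miR-122_R-1, did not enter. The 5p share of let-7a, at 6.35%, thus leaves out dre-let-7a, at 66749 normalized reads. Names with a locus number before the arm were not joined to the name without it. The 3p share of miR-181a, at 0.266%, thus leaves out ssa-miR-181a-1-3p, at 401 normalized reads. Lesser strands can therefore be understated. The values below hold for the names paired and not for arm balance over the whole table. The 5p share was lower in every SS fish than in every SD fish for 2 of the 38 (5.26%), miR-22a and miR-7132b, and higher for 3 (7.89%), miR-26b, miR-30e and miR-27d. By size of the log2 difference in arm ratio, miR-22a placed at 11 and miR-22b at 5, where the median size was 0.27. The lesser strand of miR-22a, at 5.56% on average, was near the median of 7.88% over these miRNAs, whereas 35 of the 38 had a smaller lesser strand than miR-22b.

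**Figure D4:**
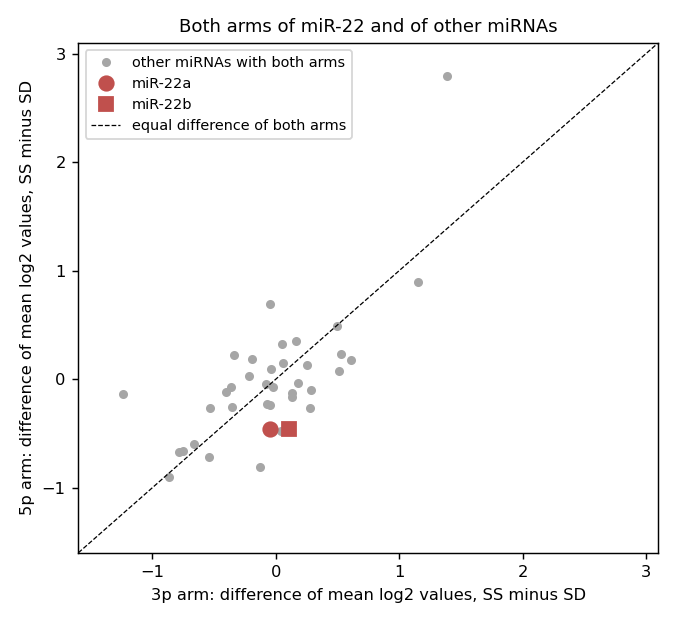
Difference of mean log2 values, SS minus SD, of the 5p strand (y axis) against the 3p strand (x axis). The 38 miRNAs shown had both strands named by arm and counted. Grey points are other miRNAs, the red circle is miR-22a and the red square is miR-22b. The dashed line marks an equal difference of both strands, and both paralogues lie below it, with the 5p strand at -0.46 and the 3p strand near 0.

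Summed over its forms, miR-22 did not separate the groups. The sum was 41168, 40461 and 37447 normalized reads in SS fish 4A, 6A and 1B, against 37729, 39057 and 49346 in SD fish 4B, 6B and 21A. SD 21A was again the highest and the other 5 fish overlapped, and the difference of mean log2 values was -0.07 (standard error 0.13). Since the 3p strand of miR-22a makes up nearly the whole sum, the lower 5p strand hardly entered it. The sum of miR-22b was 207 ± 26.7 in SS fish and 228 ± 61.6 in SD fish, a difference of -0.12 (standard error 0.25). Without SD 4B, the fish with the most miR-22b, this difference was 0.09 (0.0865), and without SD 21A that of all miR-22 was 0.05 (0.0470).

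The fold changes of miR-22 lay within the bulk of those of all sequences. The median log2 fold change of the 338 sequences tested was -0.02 and the median size was 0.37. Lower fold changes than that of dre-miR-22a-5p_R-1 were found in 15.98% of them, than that of ola-miR-22_R+1 in 14.8% and than that of dre-miR-22b-5p_R-1 in 13.6%. Dre-miR-22a-3p stood near the middle, with 45.0% below it, and dre-miR-22b-3p with 59.2% below it. Over the whole table, edgeR's quasi-likelihood test called 2 of the 338 sequences (0.592%) at an adjusted p under 0.05 and DESeq2 called 7, and neither set held a miR-22 sequence. At an unadjusted p under 0.05 there were 37 by edgeR and 36 by DESeq2, with 0 of the 5 miR-22 sequences among them by either tool. Since the choice of miR-22 used this contrast, these are counts only.

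**Figure D5:**
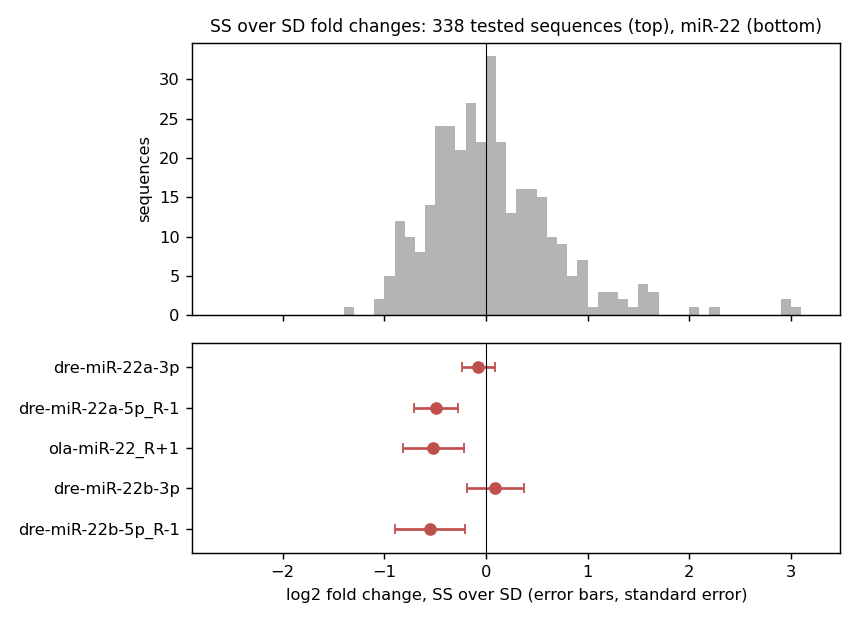
Top, number of sequences (y axis) by log2 fold change, SS over SD (x axis), for the 338 sequences tested. Bottom, the 5 miR-22 sequences tested on the same axis, with standard errors as bars. The 3p strands of both paralogues lie near 0, and the 5p strands and the form ending in C lie between -0.49 and -0.55, within the bulk of all sequences.

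Correlations from fish to fish were higher among the forms of miR-22a than between them and miR-22b, but 6 fish are too few to rank such values. Reads shared between near-identical forms can also tie dre-miR-22a-3p and ola-miR-22_R+1 to each other. On log2 values over the 6 fish, Pearson's r was 0.62 between both strands of miR-22a, 0.73 between dre-miR-22a-5p_R-1 and ola-miR-22_R+1, and 0.63 between dre-miR-22a-3p and ola-miR-22_R+1. Between both strands of miR-22b it was 0.31. Across the paralogues it was 0.51 between the 5p strands, -0.02 between the 3p strands, 0.01 (0.00701) between dre-miR-22a-3p and dre-miR-22b-5p_R-1 and -0.33 between dre-miR-22a-5p_R-1 and dre-miR-22b-3p. For ola-miR-22_R+1 it was -0.13 with dre-miR-22b-5p_R-1 and -0.39 with dre-miR-22b-3p. Among the other sequences tested, 333 in all, those most like dre-miR-22a-3p were fru-miR-24-3p_R-2 at 0.87, dre-miR-92b-3p_R+1 at 0.84, ssa-miR-30b-5p_R-4 at 0.83, dre-miR-499-5p_R-1 at 0.80 and dre-miR-140-3p_L-1 at 0.77. The groups overlapped for all 5. Most like dre-miR-22a-5p_R-1 were ssa-miR-26b-3p at 0.95, dre-miR-99_R+1, dre-miR-92a-3p_R+1 and ssa-miR-181b-5p_R-1 at 0.93 each, and dre-let-7c-5p_1ss19GC at 0.92. All 5 of these were lower in all SS fish, which their choice by likeness to a separated sequence largely fixes. The points share libraries and scaling, and these values are descriptions.

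MiRNAs of other cell types were followed beside these values. Markers of erythrocytes (miR-144, miR-451) summed to between 1822 and 7856 normalized reads in SS fish and between 4950 and 6719 in SD fish. SS 4A was the highest of all fish and SS 6A the lowest. The 6 sequences tested are forms and arms of these miRNAs and not separate markers, and none had a log2 fold change above 0. Markers of leukocytes ranged from 1833 to 2173 in SS fish and from 1585 to 2517 in SD fish, and those of endothelium from 15357 to 26223 in SS fish and from 15920 to 19380 in SD fish. Those of pancreas ranged from 153 to 607 in SS fish and from 193 to 226 in SD fish, with the highest value in SS 4A, the fish with the lowest 5p share of miR-22a. SS 6A and 1B, at 164 and 153, lay below every SD fish. Log2 fold changes above 0 were found for 0 of 4 tested sequences of epithelium, 0 of 3 of neurons, 4 of 7 of leukocytes, 8 of 14 of stroma, 3 of 3 of endothelium, 4 of 4 of pancreas and 1 of 1 of muscle. The median over all 338 sequences tested was -0.02. Several sequences of a list can be forms of the same miRNA, and 1 fish can set their direction, as SS 4A did for pancreas. The sums of all these lists overlapped between groups, and no marker name was at 0. No marker sequence was called, but of all 338 sequences tested only 2 (0.592%) were. Their part in the levels of miR-22 was not tested.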

How the data were processed

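Small RNA of 15 to 50 nt was sequenced from 6 livers. After adapter removal the authors retained inserts of 15 to 32 nt, discarded reads of mRNA, repeats and further RNA classes, and compared what was left with miRBase (release 21) entries of fish. Bowtie did this search (version 1.1.1, per the submitters' notes), tolerating 1 mismatch over the leading 16 nt. The deposited table gives expected counts, in which reads that fit several sequences are shared, and a normalized signal, the counts divided by a size parameter (0.694 to 1.77), with 0 written as 0.001. A second deposited table gives read counts per filtering step.

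Counts were rounded, filtered (filterByExpr, minimum count 10) and fitted over all 338 sequences with edgeR 4.0.16 (TMM, quasi-likelihood, Benjamini-Hochberg adjustment) in R 4.3.3. The procedure was tested on simulated data with larger changes, and that test does not cover changes as small as those of miR-22. Intervals are Wilson 95%. Strands were paired by RNAduplex of ViennaRNA 2.7.2. Sums and shares came from the unrounded counts and used pandas 2.3.3 and numpy 2.4.6 under Python 3.11.15. MiR-22 and the marker lists were chosen with earlier results of these data known. Each miR-22 sequence with at least 10 counts in total is given in every fish, and the 5 sequences most correlated with the main strand of each arm are named. Alternatives were DESeq2 1.42.0, limma 3.58.1 on log2(normalized reads + 1 or 10), other library sizes, no filter, fractional counts, a replicate block and leaving out each fish.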

Additional observations from a re-analysis of the deposited data

How the results depend on the processing

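Main limits are 3 fish per group, shared reads between near-identical forms, and the low depth of miR-22b, at most 382.5 reads in a library. With mappable reads as library size, the median log2 fold change of all sequences moved to -0.23. On that scale dre-miR-22a-3p stood at -0.29 and dre-miR-22a-5p_R-1 at -0.72. Summed and scaled by mappable reads, the differences were -0.73 for the 5p and -0.33 for the 3p strand of miR-22a, -0.17 for the 3p strand of miR-22b, and -0.35 for miR-22a and for all miR-22; the cause was not tested. The labels do not say that fish of 1 number shared a dyad, and only the numbers 4 and 6 occur in both groups. Deviations correlated at 0.13 between 4A and 4B and at 0.44 between 6A and 6B, against at most 0.30 for other pairs of fish. With a replicate block on those numbers, the sums were 0.11 for the 3p strand of miR-22a, 0.09 (0.0895) for miR-22a and 0.09 (0.0884) for all miR-22, dre-miR-22a-5p_R-1 was at -0.33, ola-miR-22_R+1 at -0.21 and dre-miR-22a-3p at 0.07, and 0 sequences were called.

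Leaving out 1 fish gave log2 fold changes of -0.21 to 0.04 for dre-miR-22a-3p, -0.63 to -0.33 for dre-miR-22a-5p_R-1, -0.81 to -0.38 for ola-miR-22_R+1, -0.03 to 0.23 for dre-miR-22b-3p and -0.80 to -0.29 for dre-miR-22b-5p_R-1. The difference in 5p share ranged from -1.64 to -1.12 percentage points for miR-22a and from -12.8 to -6.68 for miR-22b. The sums ranged from -0.15 to 0.05 for all miR-22 and for miR-22a, and from -0.29 to 0.09 for miR-22b. Dre-miR-22a-5p_R-1 stayed lower in all SS fish in each of these, which was nearly fixed in advance, since its groups lay apart with all fish in. It was also lower in all SS fish with other size factors, but not with mappable reads. Ola-miR-22_R+1 was lower in all SS fish with mappable reads, as were 42 of all 338 sequences, and without SD 4B, as were 70 of 359. Dre-miR-22b-5p_R-1 was lower in all SS fish without SD 6B, as were 58 of 360. In both cases the fish left out was the SD fish that had overlapped the SS fish, so its absence made the separation.

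Of all sequences, 2 were called. The count was 1 with mappable reads, 18 without a filter, 1 by limma with 1 added, 7 by DESeq2 and 0 to 6 leaving out 1 fish. All SS fish were below all SD fish for 26 and above for 36 of 338. These counts were 42 and 7 of 338 with mappable reads and 61 and 70 of 1283 without a filter. Leaving out 1 fish, they were 46 to 70 and 42 to 56, of 353 to 361 sequences. Full separation is easier to reach with fewer fish, so counts without a fish are not comparable with those of all 6 fish. The same holds for the 5p shares below. Among miRNAs with both strands named by arm, 5p shares at 100 counts or more were lower in all SS fish for 1 of 13 and higher for 2. Leaving out 1 fish, they were lower for 2 to 7 and higher for 3 to 6, of 35 to 38 such miRNAs.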
